A study of Mus musculus with 9 samples.

Results

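*Tceal7*, *Tceal1*, *Tceal5* and *Tceal8* are X-linked mouse genes of the transcription elongation factor A-like (TCEAL) family. These 4 genes, each with 1 row among the 22206 gene rows of the array table (19505 distinct gene symbols), were selected by symbol, and they were listed because the level of *Tceal7* was already known to differ between the groups. The differences of the 4 genes between groups are therefore given as descriptions, with standard errors and intervals and without p-values. Gene expression was measured in tibialis anterior (TA) muscle at P28, with 1 Clariom S Mouse array for each of 3 Δ1w, 3 Δ2w and 3 control mice. Δ1w mice received tamoxifen at P0 and Δ2w mice at P6 (the labels write D1w and D2w). Both carried *Pax7*creER, which is active in muscle stem cells, together with floxed *Mymk* (written 8c in the labels), so that the fusion factor Myomaker was removed from progenitors and not from nuclei already in the myofibers. The labels give averages of 55 myonuclei per myofiber for Δ1w, 100 for Δ2w and 233 for control mice. The study counted nuclei in isolated myofibers of another muscle, the extensor digitorum longus. Its Δ2w count came from mice older than P28.

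The groups were not of a single genotype. Of the Δ1w mice, replicate 1 was fl/fl; *Pax7*creER; mTmG/+, replicate 5 was LacZ/fl; *Pax7*creER; mTmG/+, and replicate 8 was fl/fl; *Pax7*creER with no mTmG allele. All 3 Δ2w mice were LacZ/fl; *Pax7*creER; mTmG/+. The controls carried no *Pax7*creER, with replicates 1 and 6 LacZ/fl; mTmG/+ and replicate 2 fl/fl; mTmG/+. The labels say that controls had no tamoxifen, whereas the methods of the study say that all mice received it, so whether tamoxifen alone differs between the groups is not settled here. The mice are separate animals, and RNA of whole muscle was hybridised, so that fewer cells of a type and less RNA per cell cannot be told apart.

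The TCEAL proteins are small and acidic, and are named for their resemblance to the elongation factor TFIIS, which restarts RNA polymerase II when it has stalled. Their genes lie on the X chromosome next to the related *Bex* genes. In cultured mouse muscle cells *Tceal7* is expressed in the myogenic lineage, where MyoD-type factors and CREB act on its promoter, and in human ovarian epithelium TCEAL7 is known for its loss in tumors and for restraining MYC and NF-kB activity. TCEAL1 was described in human cells as a nuclear phosphoprotein that modulates transcription from certain promoters.

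The promoters of the 4 genes are shown because they share a short palindrome that the choice of genes did not use. It was noticed while reading the promoters. The stretches are RefSeq sequence of GRCm38.p6, 5′ to 3′ on the strand of each gene, with the palindrome TCACGTGA in capitals. For *Tceal7* the stretch is chrX:136223970-136223997 (plus strand), for *Tceal1* chrX:136707970-136707997 (plus strand), for *Tceal5* chrX:136203883-136203910 (minus strand), and for *Tceal8* chrX:136172218-136172245 (minus strand).
Tceal7: gacataatccTCACGTGAttagaagctg
Tceal1: cgcgctccccTCACGTGAccaggagcct
Tceal5: gacgttcctgTCACGTGAtcaggagcag
Tceal8: gacgcgatccTCACGTGAccagcagtcg

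Counted from an annotated start of transcription, with the first transcribed base as 1, the palindrome began at position -61 in *Tceal7*, at -2 in *Tceal1*, at -16 in *Tceal5* and at 17 in *Tceal8*. *Tceal5* has 3 annotated starts, and the position is that from the nearest one; the palindrome was at -168 from another and outside the window of the remaining one. It was found in the 300-base windows (250 bases before to 50 after a start) of 7 of the 12 *Tceal* and *Bex* genes with a row on the array, namely these 4, *Tceal3*, *Tceal6* and *Bex3*, and in 0.974% of all 32851 mouse windows. It contains an E-box, CANNTG, the motif read by MyoD-type and many other basic helix-loop-helix factors. An E-box of any kind was in the windows of 12 of the 12 genes and in 72.3% of all windows. The E-box in the palindrome has the form CACGTG, which differs from CAGCTG, the form that MyoD prefers. The form CAGCTG was in *Tceal1* and *Tceal3* alone among the 12 (16.3% of all windows), and so not in *Tceal7*. The MEF2 motif (CTA and TAG with 4 free bases between) was in *Bex6* alone (3.69%), and TATAAA in *Bex2* alone (13.6%). The motif TGACG, part of the element read by CREB and also searched after reading the promoters, was in 11 of the 12, all but *Bex6* (20.8% of all windows). All motifs were searched on both strands, and a match only describes the letters of these windows. A gene was counted if any of its windows matched, and *Tceal5* and *Tceal3* have 3 windows each, whereas the percentages are of single windows. The 12 genes are also related to each other, so that their windows are not independent.

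The 250 bases before the start of *Tceal7* (chrX:136223791-136224040, plus strand, GRCm38.p6) are shown as well, since this was the gene that stood apart on the arrays. The capitals mark the palindrome, which holds the only E-box of the window, and the TATATA at position -26.
Tceal7: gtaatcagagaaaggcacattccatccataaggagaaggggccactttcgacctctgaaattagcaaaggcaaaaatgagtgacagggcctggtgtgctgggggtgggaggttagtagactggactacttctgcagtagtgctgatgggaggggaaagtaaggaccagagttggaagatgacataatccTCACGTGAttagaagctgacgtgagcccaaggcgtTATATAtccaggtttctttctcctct
The looser form TATANA, also searched after reading the promoters, was found in *Tceal7* and *Bex2* among the 12 genes and in 24.7% of all windows.

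The arrays as a whole had median log2 signals between 6.37 and 6.44. *Mymk*, the deleted gene, stood at 8.99, 7.49 and 7.94 in the Δ1w arrays and at 8.39, 7.67 and 6.70 in the Δ2w arrays, against 11.82, 12.03 and 11.61 in the control arrays, a difference of -3.68 (SE 0.42, adjusted p = 0.00262) in Δ1w and -4.23 (SE 0.42, adjusted p = 0.00784) in Δ2w muscle. Whether its probes lie in the floxed part is not known here. The 8 markers of mature myofibers averaged 19.07 to 19.10 in Δ1w, 19.06 to 19.12 in Δ2w and 18.99 to 19.14 in control arrays, at the upper end of the scale in every array of this muscle. All values from here on are deposited log2 signals of whole muscle RNA or differences between them, where 1 unit is a factor of 2, and signals of different genes are not compared because probes differ in brightness.

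*Tceal7* was high in Δ1w muscle, intermediate in Δ2w muscle and low in control muscle. Its log2 signal was 13.88, 14.82 and 13.75 in Δ1w replicates 1, 5 and 8. It was 12.85, 13.42 and 12.54 in Δ2w replicates 2, 3 and 4. In control replicates 1, 2 and 6 it was 11.47, 10.12 and 10.07. Every Δ1w array lay above every Δ2w array, and every Δ2w array lay above every control array, with control replicate 1 the nearest of the controls to the Δ2w arrays.

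The group means were 14.15 ± 0.58 in Δ1w, 12.94 ± 0.44 in Δ2w and 10.55 ± 0.79 in control muscle (SD, n = 3 each). The difference from control was 3.60 (SE 0.39, 95% interval 2.75 to 4.45) in Δ1w muscle, a 12.1-fold higher signal. In Δ2w muscle it was 2.38 (SE 0.39, 1.53 to 3.24), a 5.22-fold higher signal. Between the models, Δ1w exceeded Δ2w muscle by 1.21 (SE 0.39, 0.36 to 2.06), or 2.32-fold. Only 2 of the 22206 rows had a higher difference from control than *Tceal7* in Δ1w muscle and 2 in Δ2w muscle, while 62 rows had a higher difference between Δ1w and Δ2w muscle. These ranks restate what brought the gene onto the list.

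**Figure D1:**
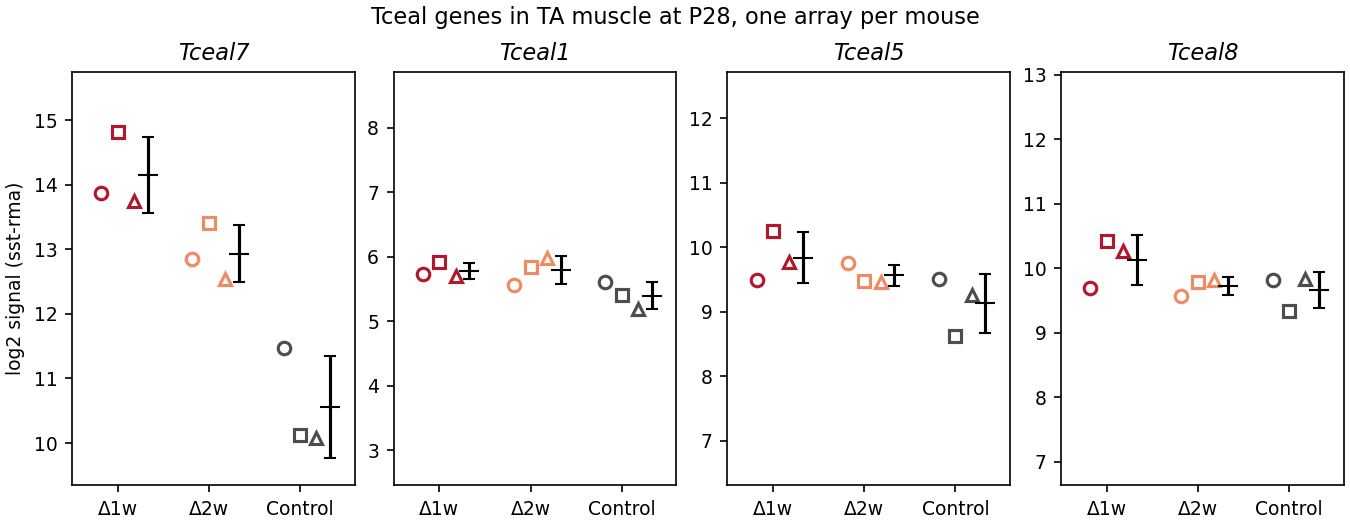
Deposited log2 signals (y axis, each panel spanning the same number of log2 units) of the 4 *Tceal* genes in Δ1w, Δ2w and control TA muscle. Each open symbol is 1 mouse, in order of replicate number within a group, and the black bar with whiskers is the mean ± SD of 3 mice. *Tceal7* runs from 13.75 to 14.82 in Δ1w, from 12.54 to 13.42 in Δ2w and from 10.07 to 11.47 in control mice, whereas the groups of *Tceal5* and *Tceal8* overlap.

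*Tceal5* showed a smaller difference with overlapping groups. Its log2 signal was 9.49, 10.26 and 9.78 in the Δ1w arrays, 9.76, 9.48 and 9.46 in the Δ2w arrays, and 9.51, 8.63 and 9.27 in the control arrays. The lowest Δ1w value lay just under the highest control value, and control replicate 2 was below all other arrays. The means were 9.84 ± 0.39, 9.56 ± 0.17 and 9.14 ± 0.46 in Δ1w, Δ2w and control muscle (SD, n = 3 each). The difference from control was 0.71 (SE 0.25, 95% interval 0.15 to 1.26) in Δ1w and 0.43 (-0.13 to 0.98) in Δ2w muscle, and the difference between Δ1w and Δ2w muscle was 0.28 (-0.28 to 0.83). Without control replicate 2, the difference from control was 0.45 in Δ1w and 0.17 in Δ2w muscle.

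For *Tceal8* the values were 9.69, 10.43 and 10.26 in the Δ1w arrays, 9.56, 9.78 and 9.82 in the Δ2w arrays, and 9.82, 9.34 and 9.83 in the control arrays. Δ1w replicates 5 and 8 were above all other arrays, whereas Δ1w replicate 1 lay within the range of both other groups. The means were 10.13 ± 0.39, 9.72 ± 0.14 and 9.66 ± 0.28 in Δ1w, Δ2w and control muscle (SD, n = 3 each). The difference from control was 0.46 (SE 0.22, 95% interval -0.02 to 0.94) in Δ1w muscle and 0.06 (-0.42 to 0.54) in Δ2w muscle. Δ1w exceeded Δ2w muscle by 0.40 (-0.08 to 0.88). The Δ2w and control values of *Tceal8* were not separated, and the interval of their difference ends at 0.54.

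*Tceal1* was at the level of background on these arrays. Its signal was 5.73, 5.92 and 5.70 in the Δ1w arrays, 5.56, 5.84 and 5.98 in the Δ2w arrays, and 5.60, 5.41 and 5.18 in the control arrays. It exceeded only 31.9 to 49.2% of the 5222 negative control probes of the same array, so that a difference in its transcript would be hard to detect. By the same measure *Tceal7* exceeded 94.9 to 99.2% of the negative control probes, *Tceal5* 87.3 to 96.4% and *Tceal8* 92.1 to 96.7%. The Δ1w values of *Tceal1* all lay above the control values, by 0.39 on average (95% interval -0.01 to 0.78), and the Δ2w and control values overlapped, with a difference of 0.40 (0.003 to 0.79).

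Of the 4 genes, 1 (*Tceal7*) was called higher in Δ1w than in control muscle at an adjusted p under 0.05, against 1.41% of all rows called in either direction and 0.905% called higher. In Δ2w against control muscle 0 of the 4 were called, where 0.045% of all rows were, and in Δ1w against Δ2w muscle 0 were called, where 0.0045% of all rows were. At an unadjusted p under 0.05 limma gave 2, 2 and 1 of the 4 in these comparisons, and 14%, 7.47% and 8.29% of all rows. Groups without overlap are common with 3 arrays each. All Δ1w arrays were above all control arrays in 8.53% of rows, all Δ2w above all control arrays in 7.52%, and all Δ1w above all Δ2w arrays in 7.2%. The full order of *Tceal7*, with Δ1w above Δ2w above control in every array, was seen in 122 rows (0.549%). The median difference of the 4 genes was 0.58 in Δ1w against control, 0.41 in Δ2w against control and 0.34 in Δ1w against Δ2w muscle, where the median of all rows was between -0.004 and 0.001. Because *Tceal7* was chosen on these contrasts, nothing is read from these counts.

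**Figure D2:**
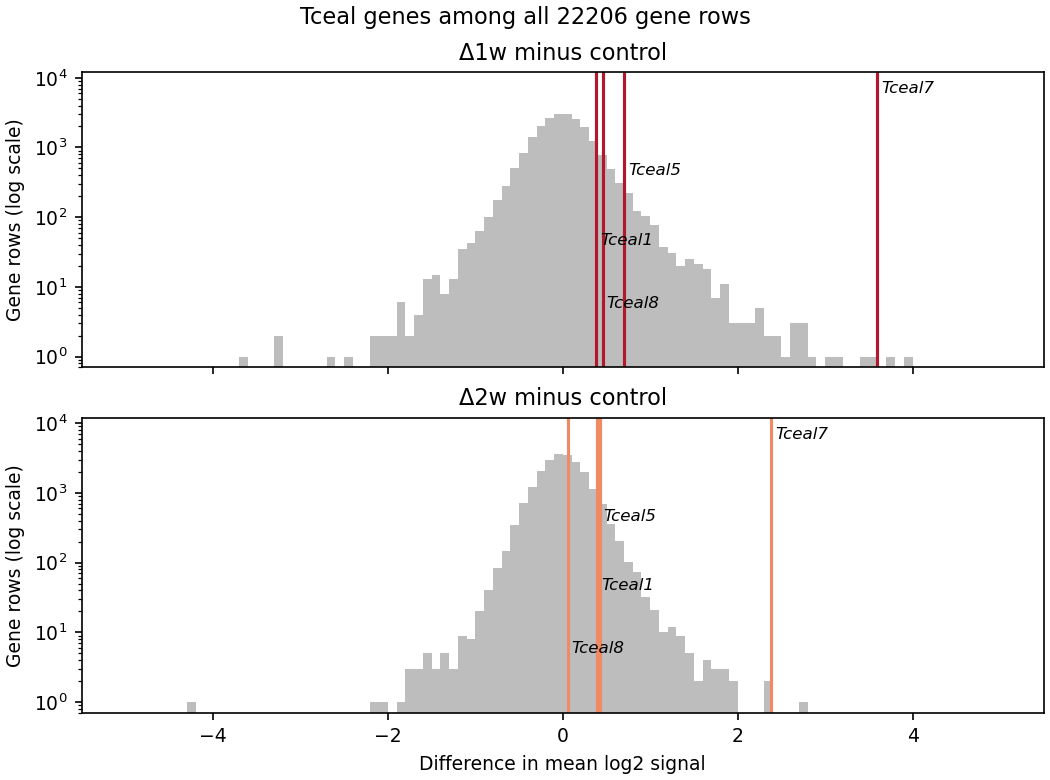
Number of gene rows (y axis, log scale) by difference in mean log2 signal (x axis) for Δ1w minus control (upper panel) and Δ2w minus control (lower panel) over 22206 rows, with vertical lines at the 4 *Tceal* genes. *Tceal7* lies in the far upper tail at 3.60 and 2.38. The other 3 genes lie between 0.06 and 0.71. The lowest of these, *Tceal8* in Δ2w muscle, is near the middle of the distribution, where 81.2% of rows had a larger difference in size.

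The individual mice showed some further regularities. Among *Tceal5*, *Tceal8*, *Tceal9*, *Bex1* and *Bex3*, the 5 relatives of *Tceal7* that averaged a signal of 6 or more, control replicate 2 was the lowest control in 5 of 5 and the lowest of all 9 arrays in 4. *Tceal7* itself did not follow that order, since control replicate 6 was as low as replicate 2. Control replicate 2 is the only control without the LacZ allele. It is also the only control whose sample name has other numbers before the replicate number. Its array had the highest median of the negative control probes (6.25). These features cannot be told apart here, and their part was not tested. The members being X-linked, Y-linked genes were examined as well. *Eif2s3y* was at 4.24 in Δ1w replicate 8, 3.95 in Δ2w replicate 4 and 3.59 in control replicate 6, and at 9.67 or more in the other mice, so that each group held 1 mouse with little Y-linked signal. *Tceal7* was the lowest of its group in each of these 3 mice. With the mean of the Y-linked genes as a covariate the *Tceal7* difference from control was 3.58 in Δ1w and 2.36 in Δ2w muscle.

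With the LacZ allele as a covariate the *Tceal7* difference was 3.87 in Δ1w and 2.11 in Δ2w muscle, and 1.77 between Δ1w and Δ2w muscle. The LacZ allele was carried by 1 of 3 Δ1w, 3 of 3 Δ2w and 2 of 3 control mice, and its part in the result was not tested further. Sample names carry a prefix that is shared by all Δ2w mice and control replicates 1 and 6, and what it denotes is not given. Within that prefix, *Tceal7* differed by 2.17 between Δ2w and control muscle. No control shares a prefix with the Δ1w mice, so for Δ1w muscle the prefix and the group cannot be told apart.

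The remaining relatives, not among the 4, were *Tceal3*, *Tceal6* and *Tceal9* and the brain expressed X-linked genes *Bex1*, *Bex2*, *Bex3*, *Bex4* and *Bex6*. All 8 had a row, and 0 of 8 were called in Δ1w against control, Δ2w against control or Δ1w against Δ2w muscle (1, 0 and 0 at an unadjusted p under 0.05, and 0 by the other fits tried). Their median difference from control was 0.15 in Δ1w and 0.14 in Δ2w muscle. Only *Tceal9*, *Bex1* and *Bex3* had a mean signal of at least 6.

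*Tceal9*, the nearest measured gene after *Tceal7* on the X chromosome, was at 9.19, 9.89 and 10.10 in Δ1w, 9.81, 9.87 and 9.98 in Δ2w, and 9.83, 9.25 and 9.69 in control arrays. Its difference from control was 0.14 (95% interval -0.38 to 0.66) in Δ1w and 0.30 (-0.22 to 0.82) in Δ2w muscle. *Bex1*, the nearest measured gene before *Tceal7*, whose product is an adaptor known from nerve growth factor receptor signaling and from regenerating muscle, was at 9.24, 9.46 and 9.45 in Δ1w, 9.35, 9.56 and 9.33 in Δ2w, and 9.62, 9.09 and 9.13 in control arrays. Its difference was 0.10 (-0.30 to 0.50) in Δ1w and 0.13 (-0.27 to 0.53) in Δ2w muscle. The groups of both genes overlapped, and the intervals of these 2 nearest measured genes end below those of *Tceal7*. Since *Tceal7* was listed because its level was known to differ, nothing is read from this comparison. *Bex3*, which encodes a cell death adaptor of the same receptor, differed by 0.16 in Δ1w and -0.16 in Δ2w muscle.

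*Tceal3* (0.62 in Δ1w, 0.60 in Δ2w), *Tceal6* (0.05, 0.16), *Bex2* (0.56, 0.14), *Bex4* (-0.24, 0.08) and *Bex6* (0.22, 0.03) had signals below most negative control probes, and their differences from control did not pass the test. *Bex2* had the smallest adjusted p of the relatives in Δ1w muscle, 0.322, at signals of 4.16 to 5.05 in Δ1w and 3.85 to 4.01 in control arrays.

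**Figure D3:**
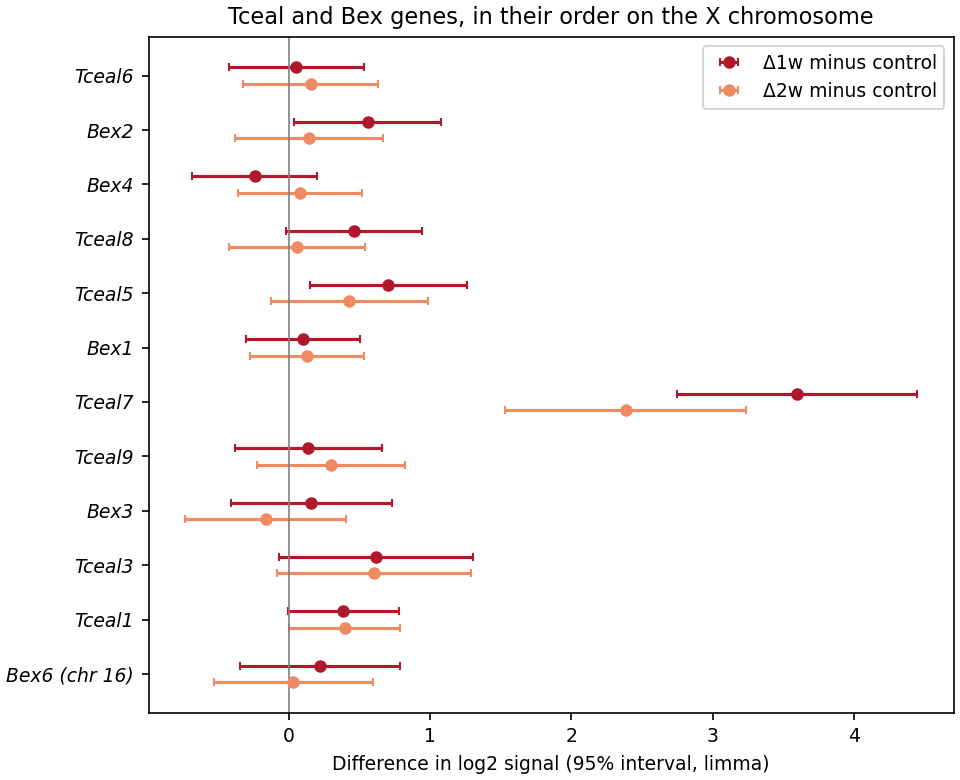
Difference in log2 signal from control (x axis, point with 95% interval from limma) of the 12 *Tceal* and *Bex* genes, listed in their order on the X chromosome with *Bex6* of chromosome 16 last, for Δ1w (dark) and Δ2w (light) muscle. *Tceal7*, which was listed because its level was known to differ, is at 3.60 and 2.38. *Bex1* and *Tceal9*, the nearest measured genes, lie between 0.10 and 0.30.

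**Figure D4:**
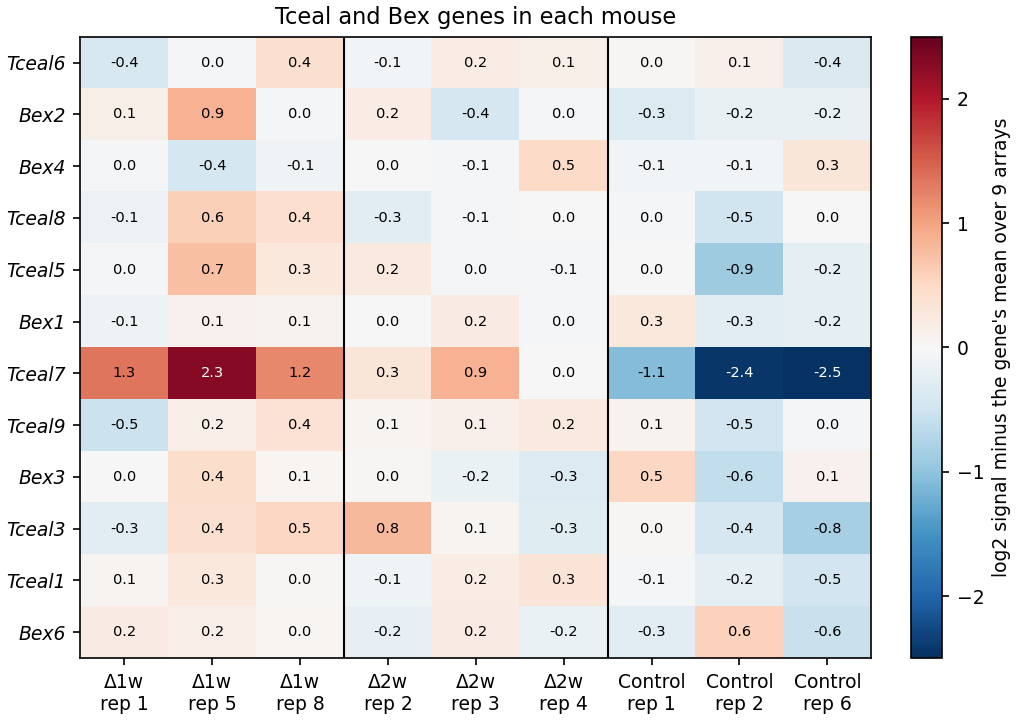
Log2 signal minus the mean of the gene over 9 arrays, for the 12 *Tceal* and *Bex* genes (rows, X chromosome order with *Bex6* of chromosome 16 last) in each mouse (columns, Δ1w, Δ2w and control). *Tceal7* is above its mean in the Δ1w mice and below it in all control mice, and control replicate 2 is below the mean in *Tceal8*, *Tceal5*, *Bex1*, *Tceal9* and *Bex3*.

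The chromosomal surroundings of *Tceal7* were then examined. Of the 10 RefSeq genes on each side of it, members of the list left out, 7 had a row (*Arxes1*, *Bex2*, *Nxf3*, *Bex4*, *Bex1*, *Tceal9* and *Bex3*) and 0 were called in any of the 3 comparisons (1, 0 and 0 at an unadjusted p under 0.05). The smallest adjusted p-values in Δ1w against control muscle were those of *Bex2* (0.322), *Nxf3* (-0.38, adjusted p = 0.580) and *Bex4* (-0.24, adjusted p = 0.652). With the 10 measured genes on each side, a choice made after seeing the data, 0 of 20 were called either (1, 0 and 1 without adjustment). Of the other 794 X-linked genes 2 were called higher and 7 lower in Δ1w muscle and 0 in Δ2w muscle (106 and 69 without adjustment), with median differences from control of -0.02 and -0.03.

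TFIIS, for which the family is named, has 3 genes, and 0 of 3 were called in any comparison (1, 1 and 0 without adjustment). *Tcea3*, the form enriched in muscle, had the lowest difference. Its signal was 14.36, 13.87 and 13.20 in Δ1w, 14.28, 14.68 and 14.03 in Δ2w, and 14.81, 15.21 and 15.08 in control arrays. All arrays of both models lay below all control arrays, with a difference of -1.22 (SE 0.28, adjusted p = 0.0553) in Δ1w and -0.70 (SE 0.28, adjusted p = 0.606) in Δ2w muscle, neither past the threshold. *Tcea1*, the widely expressed form, differed by -0.25 in Δ1w and -0.27 in Δ2w muscle, and *Tcea2* by -0.13 and -0.03.

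Of the genes of transcription elongation listed beside TFIIS, 26 were analysed. In Δ1w against control muscle 1 of 26 was called, lower, against 0.5% of all rows called lower, and 0 of 26 were called in Δ2w against control or in Δ1w against Δ2w muscle. At an unadjusted p under 0.05 the counts were 8, 4 and 3, where the shares of all rows were 14%, 7.47% and 8.29%. The gene called was *Rtf1*, a factor that works with the PAF1 complex on transcribed chromatin, at 8.64, 9.32 and 9.01 in Δ1w, 9.69, 9.75 and 9.40 in Δ2w, and 10.12, 9.79 and 9.87 in control arrays. It fell by 0.94 in Δ1w muscle (SE 0.20, adjusted p = 0.0455), with all Δ1w arrays below all others. With the TFIIS genes included, the count fell to 0 when any one of 8 of the 9 arrays was left out, and was 2 without Δ1w replicate 1. The next smallest adjusted p-values were those of *Paf1*, the PAF1 complex subunit (-0.63, adjusted p = 0.0749), and *Aff4*, the scaffold of the super elongation complex (0.73, adjusted p = 0.0862). The median difference of the 26 genes was -0.11 in Δ1w and -0.10 in Δ2w muscle.

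Factors known to act on the *Tceal7* promoter in mouse muscle cells, or to belong to their families, were not called. Of 8 such genes 0 passed the test in any comparison (1, 2 and 0 at an unadjusted p under 0.05). *Myog*, a myogenic regulator that drives differentiation, was at 8.26, 8.55 and 8.19 in Δ1w, 8.58, 8.65 and 7.89 in Δ2w, and 9.73, 8.47 and 9.58 in control arrays, a difference of -0.93 (adjusted p = 0.192) in Δ1w and -0.89 (adjusted p = 0.570) in Δ2w muscle. Control replicate 2 lay among the arrays of the 2 models, while the other controls were above them. *Myf5*, a regulator of the myogenic progenitor stage, was near background, with differences of -0.51 and -0.57. For *Myod1*, the regulator of myogenic commitment, they were -0.02 and -0.23, and for *Myf6*, the regulator of mature fibers, -0.23 and -0.32. The MEF2 genes *Mef2a* (-0.06, -0.18), *Mef2c* (0.10, 0.22) and *Mef2d* (0.01, -0.21) and *Creb1* (-0.19, -0.09) differed by less than 0.25 in either model.

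Among genes of growth control that have been linked to TCEAL7 in cultured cells, 5 of 6 were measured (*Ccnd1* was not analysed here) and 1 of 5 was called, lower, in Δ1w muscle, where 0.5% of all rows were called lower. This was *Cdkn1b*, which encodes the cell cycle inhibitor p27, at 8.06, 8.76 and 8.29 in Δ1w, 9.54, 9.57 and 8.77 in Δ2w, and 10.17, 9.82 and 9.59 in control arrays. It fell by 1.49 in Δ1w muscle (SE 0.26, adjusted p = 0.0180), and differed by -0.57 in Δ2w muscle (adjusted p = 0.670). The 3 groups did not overlap, but the gaps between them were narrow (8.76 against 8.77, and 9.57 against 9.59). The call was lost without control replicate 1 or without Δ1w replicate 8. *Cdk1* (0.15, 0.65), *Myc* (-0.17, -0.15), *Akt1* (-0.21, -0.02) and *Akt2* (-0.21, -0.25) did not pass the test in Δ1w or Δ2w muscle, and without adjustment 0 of the 5 genes reached a p under 0.05 in Δ2w against control.

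Markers of other cell types were measured beside these values. The fibroblast markers (6 of 7 measured, *Pdgfra* not analysed here) averaged 15.37 to 16.33 in Δ1w, 15.03 to 15.48 in Δ2w and 14.24 to 15.03 in control arrays. On average the groups had the same order as for *Tceal7*. Unlike for *Tceal7*, Δ1w replicate 1 (15.37) lay below Δ2w replicates 2 and 4 (15.44 and 15.48). Of the 6, 2 were called higher in Δ1w muscle, against 0.905% of all rows, *Mfap5* (1.94, adjusted p = 0.0217) and *Gsn* (1.70, adjusted p = 0.00759), and 0 in Δ2w muscle (6 and 3 of the 6 reached an unadjusted p under 0.05, as did 14% and 7.47% of all rows), and the median difference was 1.20 in Δ1w and 0.65 in Δ2w muscle. None of the 6 differed from control by as much as *Tceal7* (3.60 and 2.38). *Tceal7* was listed because its level was known to differ, so nothing is read from this comparison. Tenocyte markers averaged 11.31 to 12.65 in Δ1w, 10.76 to 11.57 in Δ2w and at most 11.52 in control arrays, with 0 of 4 called in either model (2 in Δ1w and 0 in Δ2w muscle without adjustment). Satellite cell markers averaged 5.85 to 5.96 in Δ1w, 5.62 to 5.73 in Δ2w and 5.94 to 6.18 in control arrays. Of these, *Pax7*, *Myf5*, *Calcr* and *Chrdl2* were near background. In all, 0 of 6 were called (1 and 3 without adjustment, against 14% and 7.47% of all rows). The 1 in Δ1w muscle was *Calcr* (-0.85), and the 3 in Δ2w muscle were *Pax7* (-0.55), *Myf5* (-0.57) and *Calcr* (-0.92). *Sdc4* and *Cdh15*, above background, differed by 0.22 and 0.24 in Δ1w and by 0.03 and 0.005 in Δ2w muscle. Markers of denervated fibers averaged 7.68 to 8.30, 7.72 to 7.88 and 7.70 to 8.23 in Δ1w, Δ2w and control arrays. Of these, 0 of 5 were called (2 and 1 without adjustment, against 14% and 7.47% of all rows). The 2 in Δ1w muscle went opposite ways, *Runx1* by 0.87 and *Myog* by -0.93, which an average over the list does not show. The 1 in Δ2w muscle was *Myog* (-0.89). Markers of endothelial cells, Schwann cells, pericytes and smooth muscle, macrophages and adipocytes were measured too, with 0 called in either model. Without adjustment, against the same shares of all rows, 1 of 4 macrophage markers passed in both models (*Csf1r*, 0.99 and 0.63). So did 1 of 5 adipocyte markers in Δ1w muscle (*Plin1*, 1.04), and 0 of the other 3 lists. The part of other cell types in the *Tceal7* result was not tested.

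Finally, the genes whose levels over the 9 arrays were nearest to those of *Tceal7* were identified. The measure was the root mean square difference between log2 signals after subtraction of the mean of each gene, over 10861 named rows averaging 6 or more, in which the median gene had a value of 1.61. The nearest was *Fam171b*, a membrane protein gene, at 0.58. Its signals were between 10.47 and 11.52 in Δ1w, with the highest in replicate 5, and 9.81, 9.31 and 9.31 in Δ2w and 7.80, 7.87 and 7.79 in control arrays, which gave differences from control of 3.17 and 1.66. *Tceal7* also had its highest value in Δ1w replicate 5, whereas its controls were further apart than those of *Fam171b*.

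The next was *Npr3*, the clearance receptor of natriuretic peptides, at 0.62, with 12.72, 14.46 and 13.88 in Δ1w, 13.39, 13.12 and 13.54 in Δ2w, and 11.04, 10.04 and 10.72 in control arrays. Its differences from control were 3.09 in Δ1w and 2.75 in Δ2w muscle, and the Δ2w value was larger than that of *Tceal7*. Its Δ1w and Δ2w arrays overlapped, which those of *Tceal7* did not. *BC049352* followed at 0.62, with differences from control of 2.63 in Δ1w and 1.61 in Δ2w muscle. The remaining 7 were *Cilp*, an extracellular matrix protein gene of cartilage (0.72), *Mfhas1*, which encodes a leucine-rich repeat protein (0.73), *Ctnna3*, the alpha-catenin of heart and testis (0.75), *Tspan9*, a tetraspanin (0.79), *Atp1b4*, an X-linked relative of the Na,K-ATPase beta subunits (0.81), *Amhr2*, the anti-Müllerian hormone receptor (0.81), and *Uchl1*, a deubiquitinase of neurons (0.82). The differences of these 7 from control ran from 1.83 (*Amhr2*) to 2.78 (*Cilp*) in Δ1w muscle and from 1.26 (*Amhr2*) to 1.99 (*Ctnna3*) in Δ2w muscle, all smaller than those of *Tceal7*. The other *Tceal* genes were at 1.40 for *Tceal1*, 1.27 for *Tceal5* and 1.41 for *Tceal8*. These values are above that of the 10th gene (0.82) and below that of the median gene (1.61). The list depends on the measure. By Pearson correlation over the 9 arrays only 1 of these 10, *Amhr2* (r = 0.97), was among the 10 nearest, because the correlation disregards the size of the difference.

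**Figure D5:**
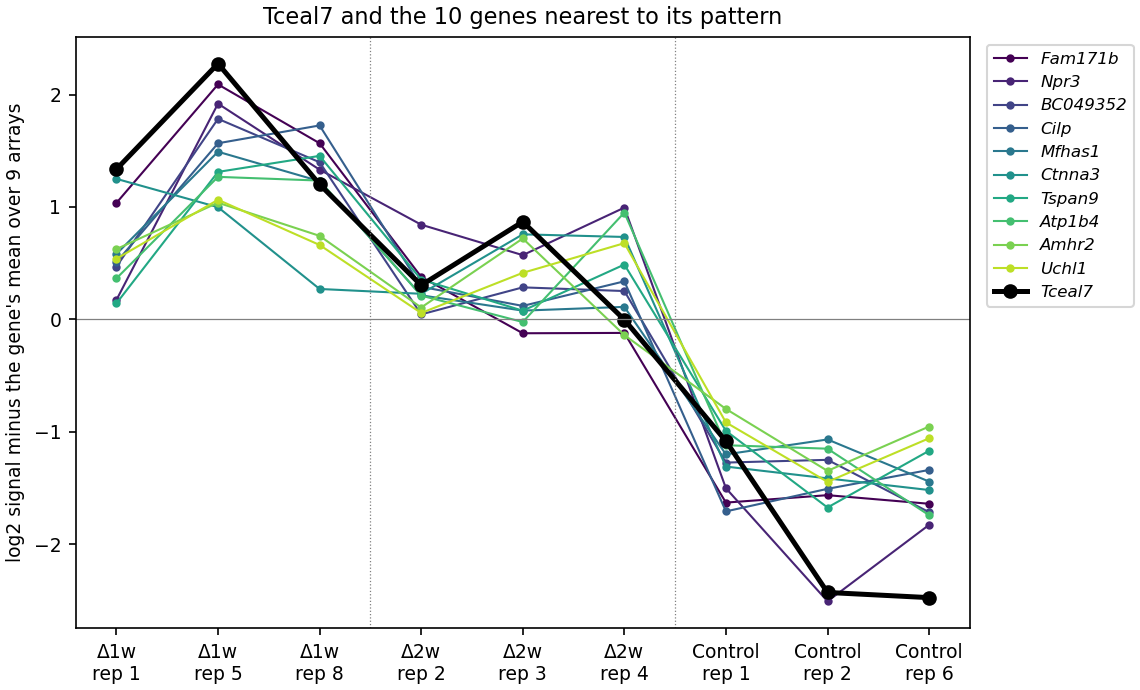
Log2 signal minus the mean of each gene over the 9 arrays (y axis) for *Tceal7* (black) and the 10 genes nearest to its pattern, by mouse in the order Δ1w, Δ2w and control (x axis). The lines only join the points of 1 gene. Each of the 11 genes is above its mean in every Δ1w array and below it in every control array. The 10 genes were chosen for nearness to *Tceal7* on these same arrays, so the shared pattern follows from the choice.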

How the data were processed

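Total RNA of TA muscle was labeled with a 3′ IVT Pico kit and hybridised to Clariom S Mouse arrays, 1 per mouse. The deposited log2 signals are gene-level sst-rma values computed by the authors (background correction, normalization between arrays and a summary over the probes of a gene), with Affymetrix Expression Console listed among the tools in the submitters' processing notes. Differences near background or near the ceiling are compressed on this scale. The genome build of the array: not given in the sources used here. Of 28846 rows, 6640 control rows were left out of the tests, and 19572 of the 22206 gene rows have a symbol. No column was left unused.

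A single limma 3.58.1 model (lmFit, eBayes; R 4.3.3) held all 3 groups and left 6 residual degrees of freedom. Adjusted p-values are limma's, by Benjamini-Hochberg over all 22206 rows, and the threshold for a call was an adjusted p under 0.05. Precision is limited by the number of arrays. No 2 arrays shared more than 56 gene rows with exactly equal deposited values (no rounding). Plots were made in Python 3.11.15 with matplotlib 3.10.9. Promoter windows are from a RefSeq table of GRCm38.p6.

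The 4 genes and all gene lists were chosen with earlier results of these data known. Named genes are the 4, all measured genes of the short lists, called genes or the 3 with the smallest p of the longer lists, and the 10 genes nearest to *Tceal7*. *Mfap5* and *Gsn* were named after their values were seen. The alternatives were other normalizations, filters, variance models, covariates, tests and the omission of each mouse.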

Additional observations from a re-analysis of the deposited data

How the results depend on the processing

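The differences of *Tceal7* kept their direction in every alternative run. Leaving out 1 mouse gave 3.26 to 4.05 for Δ1w minus control, 2.14 to 2.84 for Δ2w minus control and 0.88 to 1.45 for Δ1w minus Δ2w muscle, and the other settings gave 3.56 to 3.87, 2.11 to 2.39 and 1.18 to 1.77. With the LacZ allele as a covariate, the Δ1w minus Δ2w difference was 0.74 for *Tceal5* and 0.72 for *Tceal8* (0.28 and 0.40 without it). The *Tceal8* difference of Δ2w from control was -0.10 to 0.14 on leaving out 1 mouse, so its sign was not settled. The counts for the other *Tceal* and *Bex* genes and for the X chromosome neighbors stayed at 0 in every setting.

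The number of rows called was 312 in Δ1w against control, 10 in Δ2w against control and 1 in Δ1w against Δ2w muscle. In Δ1w against control it was 544 with a minimum mean signal of 6, 521 with a trended and robust variance, 131 with only the groups compared, 178 with the prefix of the sample names as a random block, and 104 (without Δ1w replicate 5) to 653 (without Δ1w replicate 1) on leaving out 1 mouse. In Δ2w against control it was 18 after centring on the array median, 23 with the minimum signal, 40 with the trended variance, 32 with array weights, 21 with only the groups compared, 20 with the prefix block, 5 with the LacZ allele as a covariate, 1 within the shared prefix, and 0 (on omission of control mouse 2 or 6 or of Δ2w mouse 3) to 21 (without Δ1w replicate 1) on leaving out 1 mouse. In Δ1w against Δ2w it was 10 with the trended variance, 0 with the prefix block, 0 with the LacZ covariate, 2 with the Y-linked covariate, and 0 to 58 (without Δ1w replicate 1) on leaving out 1 mouse. An unpaired t-test, listed in the general statistics section of the study and not for its arrays, called 2154, 1681 and 1542 rows unadjusted and 0, 0 and 0 after Benjamini-Hochberg adjustment.

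For the elongation genes in Δ1w against control muscle, TFIIS included, the count of 1 became 2 after centring on the median, 5 with the minimum signal, 4 with the trended variance, and 0 with array weights, with only the groups compared, with the prefix block and with the LacZ covariate. Leaving out 1 mouse gave 0 to 2. By the unpaired t-test it was 10 unadjusted (5 in Δ2w against control, 4 in Δ1w against Δ2w) and 0 adjusted. For regulators and growth genes the count of 1 in Δ1w against control was 0 to 1 on leaving out 1 mouse and 0 by the adjusted t-test, and the unadjusted t-test gave 1 in Δ1w against Δ2w. Of the 10 genes nearest to *Tceal7*, 1 was shared by Pearson correlation and 6 (without control replicate 6) to 10 on leaving out 1 mouse. The cause of these changes was not tested. No paired analysis was run because the labels do not state which mice, if any, form pairs. The use of the row with the lowest mean in place of the highest was not run, since each of the 4 genes has 1 row. With 3 mice a group, small differences of *Tceal5* and *Tceal8* could not be resolved, and *Tceal1* was limited by its signal at background.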
